A study of Mus musculus with 128 samples.

Results

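The 40 genes described here are all genes of the deposited table whose symbols begin with Psma, Psmb, Psmc or Psmd followed by a number, which is how mouse proteasome subunits are named, out of 41300 genes in all. This naming rule uses no measured value, though the family was chosen with earlier results of these data known. Pseudogene symbols were left out. They hold the 7 alpha-ring subunits (Psma1 to Psma7), the 7 constitutive beta-ring subunits (Psmb1 to Psmb7), the 6 ATPases of the regulatory particle (Psmc1 to Psmc6), 11 of its non-ATPase subunits, 3 chaperones that help assemble it (Psmd5, Psmd9 and Psmd10), and 5 subunits of specialised proteasomes. These last are the immune-type beta subunits Psmb8, Psmb9 and Psmb10, the thymus-type beta subunit Psmb11 and the testis-type alpha subunit Psma8. The remaining gene, Psmc3ip, matches the naming rule but encodes a meiotic recombination factor and is no proteasome subunit, so it is counted apart. The alpha, beta, ATPase and non-ATPase genes that most cells use are called the 31 constitutive subunits below. The 40 genes lie on 16 chromosomes.

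The proteasome degrades proteins that carry ubiquitin. Its core is a barrel in which outer rings of alpha subunits gate the entry and inner rings of beta subunits hold the cutting sites, and a cap of ATPases and non-ATPase subunits recognises, unfolds and feeds in the substrate. In early mouse development, proteins and transcripts stored in the egg are cleared while the embryonic genome is switched on, mainly at the 2-cell stage.

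The study asked how mouse oocytes and preimplantation embryos that lack maternal Kdm4a, a demethylase of histone H3 lysine residues, differ from controls. Polyadenylated RNA was sequenced from single C57BL/6 oocytes at metaphase II (MII, unfertilized) and from single embryos of 2, 4 and 8 cells, taken at 1.5, 2.5 and 3.5 days post fertilization. Knockout oocytes came from mothers without Kdm4a and wildtype oocytes from mothers with it; for the embryos, both kinds of egg were fertilized with sperm of Kdm4a-knockout males, so knockout embryos were m-/p- and their wildtype controls m+/p-. The controls therefore lack a paternal Kdm4a allele as well. Embryos of both genotypes were collected when the controls had reached the stage, and the zona was removed. The labels give 16 replicates in each of the 8 groups, and 15 are used for 8-cell knockout embryos because 1 library held 419 counts. No label names the mothers or litters, so p-values measure the spread between single oocytes or embryos. The labels do not say which exons of Kdm4a were deleted.

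Kdm4a (ENSMUSG00000033326.15, chr4:118136957-118180043, minus strand, mm10) had 0, 1.15 and 3.76 CPM (counts of the gene per 1e6 counts of the library; lowest, median and highest library) in knockout oocytes, against 4.60, 10.8 and 16.2 CPM in wildtype oocytes. The oocyte groups did not overlap, and the log2 difference of knockout minus wildtype was -3.0 ± 0.24 (SE; edgeR adjusted p = 4.94e-11). In 2-cell embryos the values were 0, 2.26 and 6.02 CPM in knockout embryos against 5.09, 16.5 and 22.6 CPM in wildtype embryos (log2 difference -2.42 ± 0.30, edgeR adjusted p = 3.31e-07). Medians were 1.36 CPM in knockout and 3.36 CPM in wildtype 4-cell embryos, and 1.08 CPM in knockout and 1.59 CPM in wildtype 8-cell embryos, too few counts for the test.

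The 127 libraries used held 528377 to 4657857 counts. Oocyte markers (8 genes, Gdf9 and Zp3 among them) summed to a median of 15120 CPM in knockout and 11660 CPM in wildtype oocytes and to 44.1 CPM in knockout and 27.8 CPM in wildtype 8-cell embryos. Summed cumulus-cell markers did not pass 2.75 CPM in any oocyte and had medians of 13.9 CPM in knockout and 14.3 CPM in wildtype 2-cell embryos. Markers of the transient 2-cell programme, such as Zscan4c, summed to a median of 1430 CPM in knockout and 2703 CPM in wildtype 2-cell embryos. A pair of libraries stood apart from their groups. The 8-cell knockout replicate 7 gave the 31 constitutive subunits 0.0368% of its counts, against 1.43 to 2.16% in the other 14 libraries of its group, and oocyte markers 3087 CPM, against 19.4 to 134 CPM. The MII knockout replicate 15 gave the subunits 0.155%, against 0.452 to 0.576% in the other 15, and detected 11139 genes, against 12634 to 14934. Results that rest on either library are given with and without it.

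The median share of counts of the 31 constitutive subunits was lower in 2-cell embryos than in oocytes and several-fold larger from the 4-cell stage on, in both genotypes. Their summed share of counts was 0.155, 0.512 and 0.576% (lowest, median and highest) in knockout oocytes, against 0.387, 0.462 and 0.555% in wildtype oocytes. In 2-cell embryos it was 0.225, 0.338 and 0.558% in knockouts and 0.183, 0.259 and 0.316% in wildtypes. In 4-cell embryos it was 1.34, 1.58 and 2.20% in knockouts and 1.29, 1.59 and 1.86% in wildtypes, and in 8-cell embryos 0.0368, 1.9 and 2.16% in knockouts and 1.79, 1.9 and 2.27% in wildtypes. Every wildtype 2-cell embryo lay below every wildtype oocyte, while the knockout stages overlapped. Within each genotype no 4-cell library reached down to a 2-cell library, while the genotypes overlapped at every stage. A CPM value is a share of the polyadenylated counts of a library, so fewer copies per embryo and more RNA of other genes cannot be told apart.

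**Figure D1:**
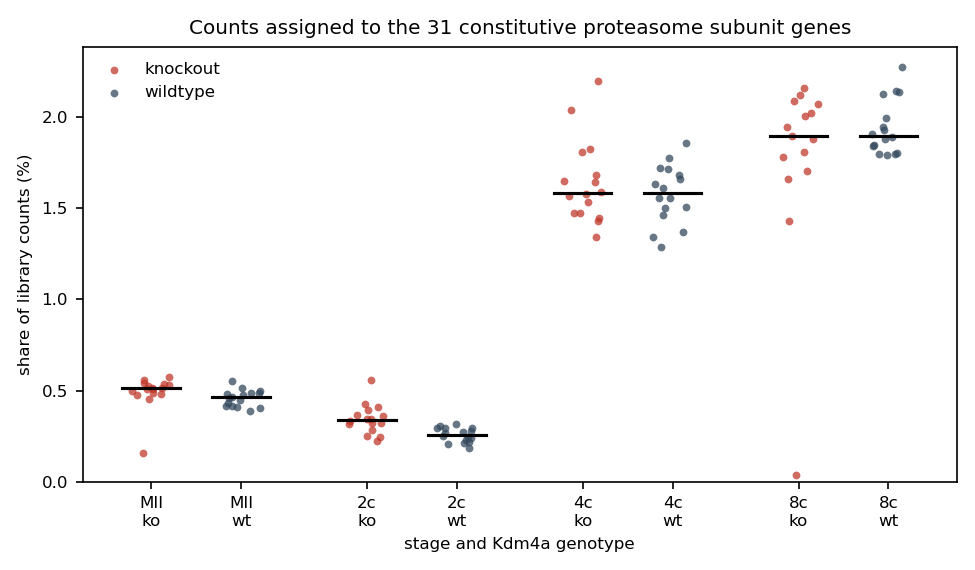
Share of library counts (percent, y axis) taken by the 31 constitutive proteasome subunits in each library, by stage, with knockout left of wildtype; points are single oocytes or embryos and bars mark the medians. The share reaches at most 0.576% in oocytes and 2-cell embryos and is at least 1.29% in all 4-cell and 8-cell embryos except 8-cell knockout replicate 7, at 0.0368%.

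The classes did not keep one proportion. Alpha-ring genes had a median share of 0.344% of counts in knockout and 0.303% in wildtype oocytes, while beta-ring genes had 0.0179% in knockout and 0.0154% in wildtype oocytes. In 2-cell embryos the alpha ring was at 0.168% in knockouts and 0.107% in wildtypes and the beta ring at 0.0634% in knockouts and 0.0483% in wildtypes. By the 8-cell stage the shares were 0.929% in knockouts and 0.920% in wildtypes for the alpha ring, and 0.224% in knockouts and 0.222% in wildtypes for the beta ring. The ATPases were at 0.0254% in knockout and 0.0208% in wildtype oocytes and at 0.251% in knockout and 0.248% in wildtype 8-cell embryos. The 3 assembly chaperones showed no such climb: their median share was 0.0352% in knockout and 0.0291% in wildtype oocytes, and 0.0340% in knockout and 0.0295% in wildtype 8-cell embryos.

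Levels can be compared between genes only per length, and CPM per kilobase of the deposited gene length was used for that. In oocytes the highest constitutive subunit was Psma2, an alpha-ring subunit, with a median of 643 CPM per kb in knockouts and 522 in wildtypes. The lowest were Psmd13, a subunit of the cap's lid, at 0 in both genotypes, and Psmb5, which holds the chymotrypsin-like cutting site, at 0 CPM per kb in knockouts and 0.148 in wildtypes. The finished core holds its alpha and beta subunits in equal numbers. In 2-cell embryos the beta-ring gene Psmb2 was highest, at 494 CPM per kb in knockouts and 296 in wildtypes, and Psmb5 was lowest, at 0 in both. In 4-cell embryos the highest was the alpha-ring gene Psma6, at 2118 CPM per kb in knockouts and 2095 in wildtypes. In 8-cell embryos it was again Psma6, at 2313 CPM per kb in knockouts and 2694 in wildtypes. The lowest at both later stages was the cap subunit Psmd3, at 3.31 CPM per kb in knockout and 3.77 in wildtype 4-cell embryos and at 3.62 in knockout and 4.75 in wildtype 8-cell embryos. The median over the 31 genes was 12.3 CPM per kb in knockout and 16.7 in wildtype oocytes, 32.6 in knockout and 28.9 in wildtype 2-cell embryos, 239 in knockout and 212 in wildtype 4-cell embryos, and 303 in both 8-cell groups.

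**Figure D2:**
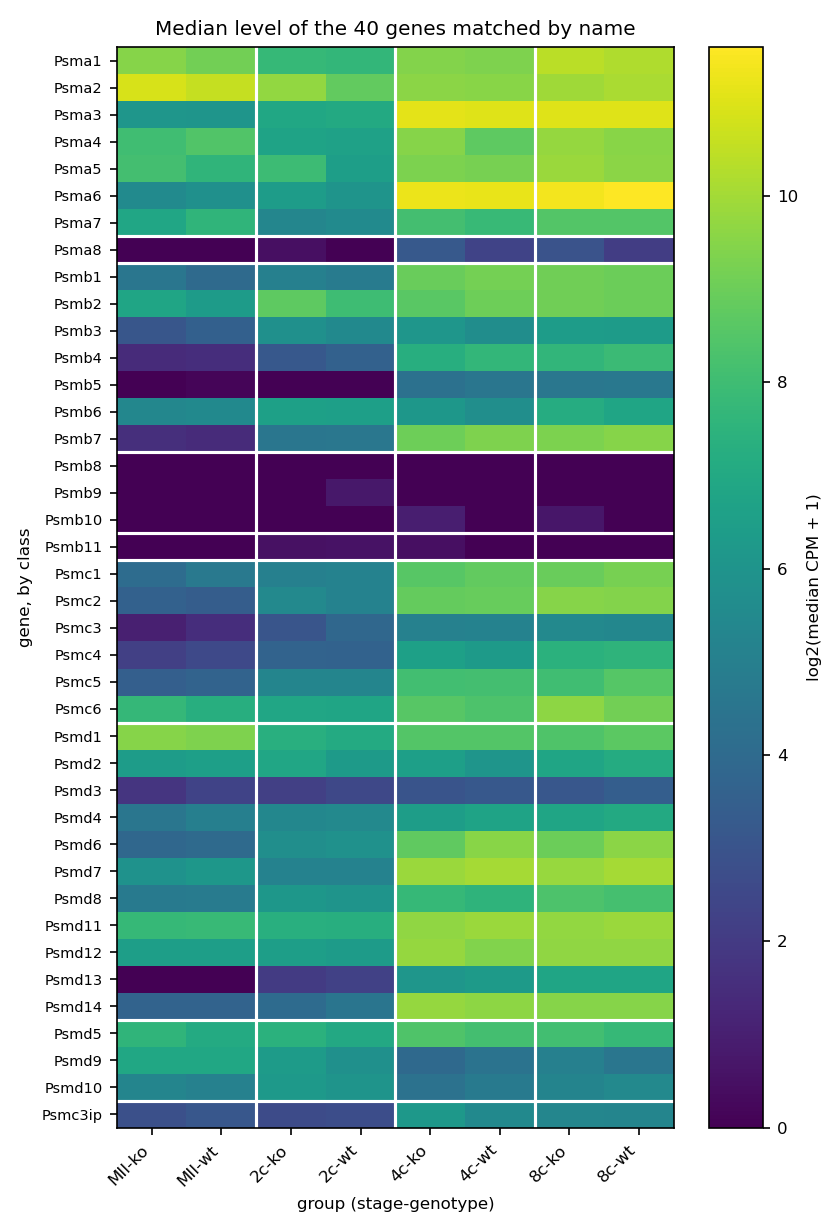
Median level of each of the 40 genes in the 8 groups, as log2(median CPM + 1) (colour, not per length), with genes in rows ordered by class and knockout left of wildtype at each stage. Most constitutive subunits are several-fold brighter in the 4-cell and 8-cell columns, while the immune-type and thymus-type subunits stay dark throughout and the chaperones Psmd9 and Psmd10 are darker in 4-cell than in 2-cell embryos.

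The specialised subunits were near the detection limit. Psmb8, Psmb9, Psmb10 and Psmb11 had no count in 112, 106, 81 and 85 of the 127 libraries, and Psmb10 had the highest single value of the 3 immune-type genes, 3.91 CPM. Psma8, the alpha subunit of the testis proteasome, had no count in 51 libraries. It reached medians of 8.57 CPM in knockout and 4.02 CPM in wildtype 4-cell embryos, and of 6.83 CPM in knockout and 3.28 CPM in wildtype 8-cell embryos. Among the constitutive subunits Psmb5 had no count in 45 libraries and Psmd13 none in 26, nearly all of them oocytes or 2-cell embryos.

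Promoters of 4 genes that recur in the results are shown, as deposited in RefSeq for GRCm38.p6, from 250 bases before to 50 bases after the gene start. Psmd14 is among the genes with the steepest climb to the 4-cell stage, Psmd9 fell at that step, and Psma5 differed most between genotypes in 2-cell embryos. Psmb5 had too few counts in 2-cell embryos to be called lower at that step. Its rise to the 4-cell stage is therefore a description and is not ranked with that of Psmd14. Capitals mark the letters TGACNNNGC, the core of the antioxidant response element through which Nfe2l1 and Nfe2l2 drive proteasome genes, and CCAAT, the CCAAT box, each searched on both strands. The windows are chr2:61711444-61711743 (plus strand) for Psmd14, chr14:54617946-54618245 (minus strand) for Psmb5, chr5:123227940-123228239 (plus strand) for Psmd9 and chr3:108256676-108256975 (plus strand) for Psma5.
Psmd14: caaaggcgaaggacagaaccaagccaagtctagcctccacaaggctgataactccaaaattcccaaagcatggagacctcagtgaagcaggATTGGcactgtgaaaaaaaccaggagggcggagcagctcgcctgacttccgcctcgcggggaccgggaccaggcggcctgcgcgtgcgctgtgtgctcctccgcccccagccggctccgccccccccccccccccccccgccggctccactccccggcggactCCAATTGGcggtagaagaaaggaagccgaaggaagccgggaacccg
Psmb5: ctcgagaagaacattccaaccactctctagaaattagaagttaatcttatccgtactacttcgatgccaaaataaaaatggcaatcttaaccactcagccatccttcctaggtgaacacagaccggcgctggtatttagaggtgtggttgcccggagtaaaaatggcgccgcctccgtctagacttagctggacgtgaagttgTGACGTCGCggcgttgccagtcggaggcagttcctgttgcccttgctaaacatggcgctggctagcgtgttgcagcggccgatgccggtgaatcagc
Psmd9: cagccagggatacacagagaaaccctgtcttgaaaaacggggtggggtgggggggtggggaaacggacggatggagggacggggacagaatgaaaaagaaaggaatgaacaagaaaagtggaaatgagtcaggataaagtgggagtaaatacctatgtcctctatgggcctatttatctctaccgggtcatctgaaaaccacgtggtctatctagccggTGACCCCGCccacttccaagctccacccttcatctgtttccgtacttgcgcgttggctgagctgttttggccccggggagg
Psma5: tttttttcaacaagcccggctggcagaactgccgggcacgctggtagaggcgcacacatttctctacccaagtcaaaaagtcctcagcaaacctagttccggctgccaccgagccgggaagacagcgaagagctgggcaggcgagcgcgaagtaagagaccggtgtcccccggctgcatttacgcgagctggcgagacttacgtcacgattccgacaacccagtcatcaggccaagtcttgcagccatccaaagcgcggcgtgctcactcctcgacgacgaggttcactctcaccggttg
The Psmd14 window holds 3 CCAAT matches, of which a pair overlap on opposite strands just past the start. The Psmb5 window holds 1 TGACNNNGC match, at base 204 of the window, and so does the Psmd9 window, at base 220. The Psma5 window holds neither, which says only that these letters are not in this window. Windows were found for 33 of the 40 genes (35 windows). TGACNNNGC occurred in 5 of them (14.3%), those of Psmb5, Psmb6, Psmc6, Psmd9 and Psmd12, against 12.4% of all 32851 windows in the table. CCAAT occurred in 14 (40%), against 37.4% of all windows. Among the 23 windows of constitutive subunits that were higher in wildtype 4-cell than 2-cell embryos, 3 held TGACNNNGC (13%) and 8 held CCAAT (34.8%). These shares lie close to those of all windows.

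At the step to the 2-cell stage every alpha-ring gene that was called fell and every beta-ring gene that was called rose, in both genotypes. A gene was called when its adjusted p was under 0.05 and its log2 change at least 1 in size. Psma8, Psmb5 and Psmb8 to Psmb11 had too few counts to be tested here, and Psmb4, Psmb7, Psmc3 and Psmd13 did not pass the filter on low counts among oocytes alone. These 4 entered the test through their 2-cell counts and so could only be called higher. In wildtypes, 9 of the 34 genes tested were higher in 2-cell embryos than in oocytes, against 31.3% of all genes tested, and 8 were lower, against 20.1%. In knockouts 10 were higher (background 29.9%) and 7 lower (background 19.5%), with the same counts when MII knockout replicate 15 was left out. The 4 genes with a fixed direction are among the higher ones in both genotypes. Of the 29 genes that passed the filter at each of the 2 stages alone, 5 were higher and 8 lower in wildtypes. In knockouts 6 of these 29 were higher and 7 lower. Psmd3 did not pass the filter among 2-cell embryos alone, so it is not among these 29 either, and it was called in neither genotype. Of the 7 alpha-ring genes, 4 were lower in knockouts and 5 in wildtypes, and none was higher in either. Of the 6 beta-ring genes tested, 4 were higher and none lower in each genotype; 2 of the 4 were Psmb4 and Psmb7, whose direction the filter fixed. Among the 6 ATPases, 4 were higher and 1 lower in knockouts, and 3 were higher and none lower in wildtypes. The higher ones include Psmc3, whose direction was fixed. Of the 11 non-ATPase subunits, 2 were higher and 2 lower in each genotype, with Psmd13, also of fixed direction, among the higher ones. The median log2 change over the genes tested was 0.27 in knockouts and 0.07 in wildtypes, beside 0.15 in knockouts and 0.17 in wildtypes over all genes.

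Among the genes that fell, Psmd1, a large scaffold of the cap's base, had 44.2, 137 and 209 CPM in wildtype 2-cell embryos, against 518, 655 and 870 CPM in wildtype oocytes. The stages did not overlap, and the log2 change was -2.71 ± 0.15 (edgeR adjusted p = 4.79e-26); in knockouts it was -2.30. The alpha-ring gene Psma7 had 18.5, 46.4 and 67.2 CPM in wildtype 2-cell embryos, against 105, 193 and 317 CPM in oocytes, again without overlap (log2 change -2.51 ± 0.18, edgeR adjusted p = 4.93e-21). Psma4, another alpha-ring gene, had 53.5, 97.1 and 134 CPM in wildtype 2-cell embryos, against 279, 349 and 407 CPM in oocytes (log2 change -2.28 ± 0.12, edgeR adjusted p = 1.07e-27), and its stages did not overlap either. Psma2 had 174, 452 and 698 CPM in wildtype 2-cell embryos, against 922, 1520 and 2330 CPM in oocytes, and its groups were separate too (log2 change -2.25 ± 0.20, edgeR adjusted p = 8.58e-16). The knockout changes were -1.82 for Psma7, -1.84 for Psma4 and -1.42 for Psma2.

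The genes with the largest rises were the 4 that entered the test through their 2-cell counts, so their direction is no finding and their values are a description. Psmd13 had 0, 3.73 and 11.4 CPM in wildtype 2-cell embryos, against 0, 0 and 0.730 CPM in oocytes (log2 change 4.41 ± 0.56), so its fitted change rests on oocyte counts near 0. Psmb7, which holds the trypsin-like site, had 12.5, 22.9 and 88.6 CPM in wildtype 2-cell embryos, against 0.533, 1.66 and 4.65 CPM in oocytes, with every embryo above every oocyte (log2 change 3.46 ± 0.27). The ATPase Psmc3 had 4.76, 13.5 and 29.4 CPM in wildtype 2-cell embryos and 0.365, 1.87 and 4.01 CPM in oocytes, also without overlap (log2 change 2.31 ± 0.27). Psmb4, a structural beta-ring gene, had 2.91, 11 and 24.4 CPM in wildtype 2-cell embryos and 0.546, 1.83 and 2.98 CPM in oocytes; the lowest embryo lay just below the highest oocyte (log2 change 2.13 ± 0.28). In knockouts the changes were 3.83 for Psmd13, 2.97 for Psmb7, 2.38 for Psmc3 and 1.98 for Psmb4. Every 2-cell library lay above every oocyte for 7 of the 31 constitutive subunits in knockouts (background 11.5%) and for 5 in wildtypes (background 14.5%), and below for 1 in knockouts (background 2.06%) and 5 in wildtypes (background 5.67%). Without MII knockout replicate 15 the knockout counts were 7 above (background 14.3%) and 4 below (background 6.54%), the 4 being Psma1, Psma4, Psmd1 and Psmd7.

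At the step to the 4-cell stage the share of counts of most subunit genes rose. In wildtypes 27 of the 36 genes tested were higher in 4-cell than in 2-cell embryos, against 31.3% of all genes tested, and 2 were lower, against 43.4%. In knockouts 25 were higher (background 33.2%) and 2 lower (background 41.8%). Of the 31 constitutive subunits, 23 were higher in knockouts and 25 in wildtypes. By class these were 6 of 7 alpha-ring genes, 4 of 7 beta-ring genes and 6 of 6 ATPases in each genotype, and 7 of 11 non-ATPase genes in knockouts and 9 of 11 in wildtypes. Psma8 and Psmc3ip were higher in both genotypes. Psma8, Psmb5, Psmd3 and Psmd13 did not pass the filter among 2-cell embryos alone and could only be called higher. Among the other 32 genes, 22 were higher in knockouts and 24 in wildtypes. The genes that were lower were 2 of the 3 assembly chaperones. The median log2 change of the genes tested was 2.45 in knockouts and 2.22 in wildtypes, beside -0.30 in knockouts and -0.43 in wildtypes over all genes. With RLE in place of TMM scaling the median over all genes moved to -0.69 in knockouts and -0.76 in wildtypes, and 24 genes were higher and 3 lower in knockouts and 22 higher and 3 lower in wildtypes. The wildtype calls of Psmc3, Psmc6 and Psmd1, with log2 changes of 1.04, 1.11 and 1.07, held in 4, 4 and 3 of 6 alternatives.

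**Figure D3:**
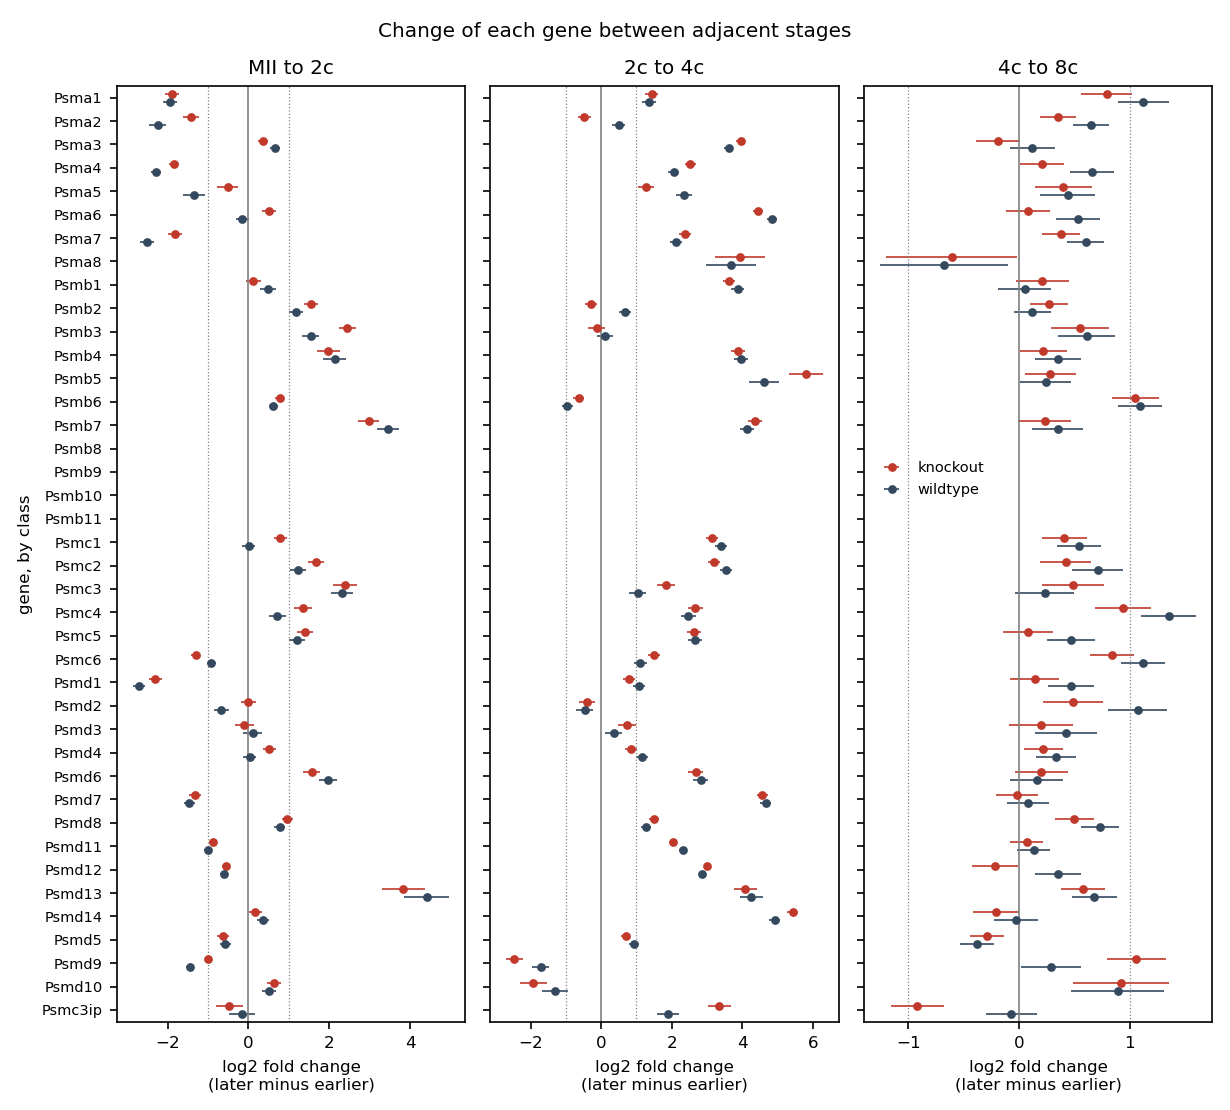
Log2 change (x axis, later minus earlier stage, edgeR fit) of each member gene tested at the 3 stage steps, with genes in rows by class; red marks are knockout, dark marks wildtype, bars the standard error, and dotted lines a log2 change of 1 either way. Called alpha-ring genes lie left of 0 and called beta-ring genes right of 0 at the step to 2 cells. Of these beta-ring genes, Psmb4 and Psmb7 could only be called higher because of the filter on low counts. Most genes lie right of 0 at the step to 4 cells, and most values lie between the dotted lines at the step to 8 cells.

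Psmd14 (ENSMUSG00000026914.15, chr2:61711694-61800376, plus strand), the deubiquitinase that removes ubiquitin chains at the mouth of the cap, climbed most among the wildtype calls. It had 537, 801 and 1100 CPM in wildtype 4-cell embryos, against 12.3, 22 and 34.2 CPM in wildtype 2-cell embryos. Every 4-cell embryo lay far above every 2-cell embryo, and the log2 change was 4.92 ± 0.15 (edgeR adjusted p = 1.59e-39). In knockouts it had 655, 867 and 1230 CPM in 4-cell embryos, against 8.81, 15.8 and 26.5 CPM in 2-cell embryos, also without overlap, and changed by 5.43 ± 0.15 (edgeR adjusted p = 3.76e-41). Psmd7, the partner with which Psmd14 forms a dimer in the lid, had 866, 1060 and 1290 CPM in wildtype 4-cell embryos, against 21.3, 33.8 and 72.9 CPM in 2-cell embryos (log2 change 4.66 ± 0.15, edgeR adjusted p = 8.58e-39). Its stages were separate in wildtypes, and in knockouts the log2 change was 4.57 ± 0.15.

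Psma6, of the alpha ring, had 1790, 2400 and 2670 CPM in wildtype 4-cell embryos, against 29.9, 63.9 and 109 CPM in 2-cell embryos. The stages did not overlap (log2 change 4.84 ± 0.15, edgeR adjusted p = 6.19e-39), and knockouts changed by 4.44 ± 0.15. Psmb5, with the chymotrypsin-like site, was hardly counted before this step. It had no count in any knockout oocyte and at most 0.586 CPM in wildtype oocytes. In wildtype 4-cell embryos it had 12.5, 22.5 and 36.6 CPM, against 0, 0 and 3.30 CPM in 2-cell embryos, with no overlap (log2 change 4.61 ± 0.42). In knockout 4-cell embryos it had 6.70, 19.3 and 42.6 CPM, against 0, 0 and 1.18 CPM in 2-cell embryos (log2 change 5.80 ± 0.48). Both fitted changes rest on 2-cell counts near 0. The other cutting sites had been counted earlier: the caspase-like site's gene Psmb6 had 32.9, 43.7 and 65.2 CPM in wildtype oocytes. It was also the 1 constitutive subunit whose adjusted p passed in both genotypes with a lower level in 4-cell embryos, by -0.64 log2 in knockouts and -0.96 in wildtypes (edgeR adjusted p = 1.83e-04 in knockouts and 1.24e-07 in wildtypes), short of the fold needed for a call.

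Of the 3 chaperones, 2 went the other way. Psmd9 (ENSMUSG00000029440.15, chr5:123228190-123250131, plus strand), a factor that holds ATPases during assembly of the cap's base, had 4.17, 20.6 and 38.4 CPM in wildtype 4-cell embryos, against 38.6, 55.9 and 89.3 CPM in 2-cell embryos. The stages narrowly missed each other, with every 4-cell embryo below every 2-cell embryo, and the log2 change was -1.72 ± 0.23 (edgeR adjusted p = 3.3e-10), with -2.46 ± 0.23 in knockouts. Psmd10, known as gankyrin and also a base chaperone, had 1.79, 26.1 and 117 CPM in wildtype 4-cell embryos, against 33.6, 64.0 and 97.2 CPM in 2-cell embryos. Its stages overlapped widely, and the log2 change was -1.31 ± 0.36 (edgeR adjusted p = 8.12e-04), with -1.92 ± 0.37 in knockouts. Psmd5, the third, had 195, 283 and 486 CPM in wildtype 4-cell embryos, against 65.9, 126 and 165 CPM in 2-cell embryos. Its stages did not overlap, and its log2 change was 0.70 ± 0.13 in knockouts (edgeR adjusted p = 1.48e-06) and 0.93 ± 0.13 in wildtypes (edgeR adjusted p = 1.44e-09), short of the fold needed for a call. Every 4-cell library lay above every 2-cell library for 19 of the 31 constitutive subunits in knockouts (background 13%) and for 20 in wildtypes (background 10.9%).

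From 4 to 8 cells few genes changed by enough to be called. In wildtypes 5 of 36 genes were higher in 8-cell than in 4-cell embryos (background 9.33%) and none lower (background 11.3%). In knockouts 2 were higher (background 8.1%) and none lower (background 3.88%). At an unadjusted p under 0.05 and with no minimum fold, 12 of the 36 genes were higher and 1 lower in knockouts. In wildtypes 17 were higher and 1 lower. Over all genes 3056 of 8822 in knockouts and 3993 of 8822 in wildtypes had such a p in either direction, so these counts say nothing particular about the members. Psmc4, an ATPase, had 89.2, 185 and 287 CPM in wildtype 8-cell embryos, against 44.9, 79.2 and 117 CPM in 4-cell embryos, and the stages overlapped (log2 change 1.35 ± 0.25, edgeR adjusted p = 2.53e-05). The other wildtype calls were the ATPase Psmc6 (1.12 ± 0.20, edgeR adjusted p = 1.35e-05), the alpha-ring gene Psma1 (1.12 ± 0.23, edgeR adjusted p = 1.18e-04) and the caspase-like subunit Psmb6 (1.09 ± 0.20, edgeR adjusted p = 2.77e-05), and the fifth was Psmd2, a scaffold of the base (1.07 ± 0.27, edgeR adjusted p = 0.00124). Psmb6 (log2 change 1.05) and the chaperone Psmd9 (1.06) were called in knockouts. Without 8-cell knockout replicate 7, 2 genes were still higher in knockouts (background 6.4%) and none lower (background 6.61%), and Psmd9 was not among them. In wildtypes 7 constitutive subunits were called higher at each of the first 2 steps and not called at the last: Psmb4, Psmb7, Psmc2, Psmc3, Psmc5, Psmd6 and Psmd13. The filter on low counts fixed the direction of Psmb4, Psmb7, Psmc3 and Psmd13 at the first step, and of Psmd13 at the second as well. Only Psmc2, Psmc5 and Psmd6 could have been called either way at both steps. A further 9 rose only at the step to 4 cells by these calls, among them Psmd14, Psma6 and Psma3, and Psmd3 was not called at any step.

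Between genotypes the calls fell on single genes of several classes. A genotype difference was called at an edgeR adjusted p under 0.05, with no minimum fold. In oocytes 2 of 30 members tested were higher in knockouts (background 5.27%) and 4 lower (background 6.69%). In 2-cell embryos 7 of 32 were higher (background 7.3%) and 1 lower (background 10%). In 4-cell embryos 4 of 36 were higher (background 8.97%) and 1 lower (background 7.46%), and in 8-cell embryos none of 36 was higher (background 8.69%) or lower (background 2.76%).

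**Figure D4:**
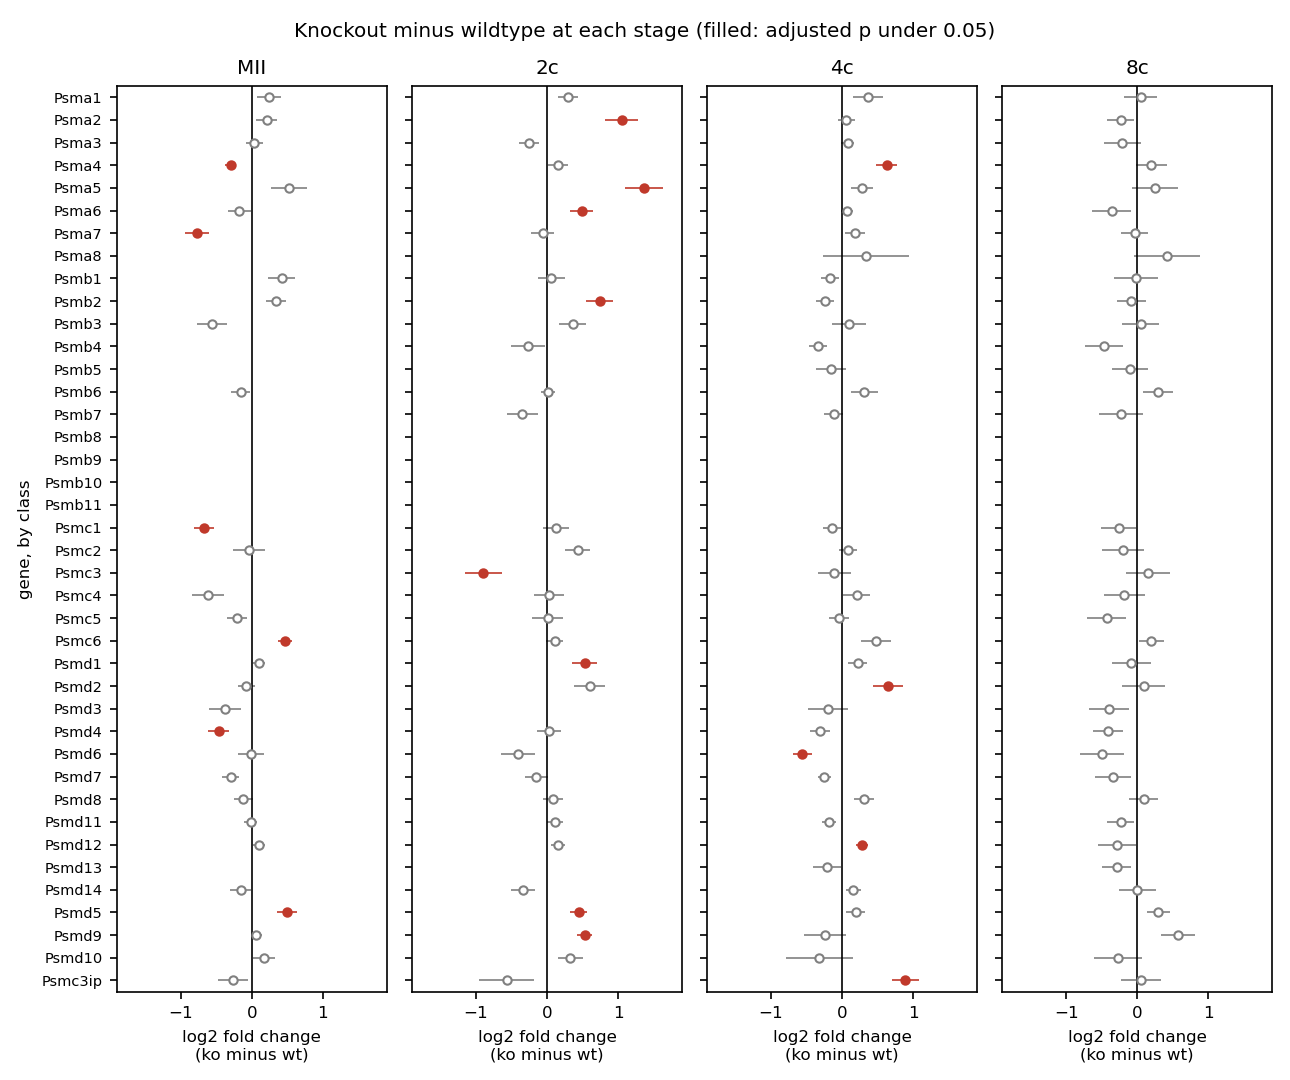
Log2 difference (x axis, knockout minus wildtype, edgeR fit) of each member gene tested, in one panel per stage with genes in rows by class; bars are standard errors and filled marks are genes with an adjusted p under 0.05. Filled marks are 6 in oocytes, 8 in 2-cell embryos, 5 in 4-cell embryos and 0 in 8-cell embryos, and the one farthest right is Psma5 in 2-cell embryos.

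In oocytes the 2 genes that were higher in knockouts were Psmc6 and Psmd5. Psmc6, an ATPase, had 180, 213 and 266 CPM in knockout oocytes, against 113, 152 and 225 CPM in wildtype oocytes. All 16 knockouts lay above the wildtype median and 5 above the highest wildtype oocyte (log2 difference 0.47 ± 0.10, edgeR adjusted p = 0.00205). Psmd5, a base chaperone, had 29.8, 193 and 316 CPM in knockout oocytes, against 97.3, 134 and 182 CPM in wildtype oocytes. Here 15 knockouts lay above the wildtype median, and the groups overlapped (log2 difference 0.49 ± 0.14, edgeR adjusted p = 0.0191).

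The 4 genes lower in knockout oocytes came from the ATPases, the alpha ring and the ubiquitin receptor. Psmc1, an ATPase, had 3.87, 16.2 and 22.3 CPM in knockout oocytes, against 15.1, 24.7 and 35.4 CPM in wildtype oocytes. No knockout oocyte reached the wildtype median, though the ranges overlapped (log2 difference -0.67 ± 0.14, edgeR adjusted p = 0.00201). Psma7 had 39.9, 114 and 189 CPM in knockout oocytes, against 105, 193 and 317 CPM in wildtype oocytes, and again no knockout reached the wildtype median (log2 difference -0.77 ± 0.17, edgeR adjusted p = 0.00316). Psma4 had 208, 263 and 412 CPM in knockout oocytes, against 279, 349 and 407 CPM in wildtype oocytes. Of the knockouts, 2 lay above the wildtype median (log2 difference -0.30 ± 0.08, edgeR adjusted p = 0.0142). Psmd4, which binds ubiquitin chains for the cap, had 10.4, 22.6 and 33.5 CPM in knockout oocytes, against 17, 30.7 and 44.0 CPM in wildtype oocytes, with 1 knockout above the wildtype median (log2 difference -0.47 ± 0.15, edgeR adjusted p = 0.0307). Its adjusted p rose to as much as 0.0579 when knockout replicate 10 or wildtype replicate 1, 5 or 10 was left out.

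The oocyte counts moved with single libraries. Without knockout replicate 15, 7 members were higher in knockouts (background 9.8%) and 5 lower (background 9.79%), including all 6 genes above. The added ones were the alpha-ring genes Psma1 (log2 difference 0.33, edgeR adjusted p = 0.00372), Psma2 (0.30, edgeR adjusted p = 0.0301) and Psma5 (0.62, edgeR adjusted p = 0.00113) and the beta-ring genes Psmb1 and Psmb2 on the higher side, and Psmb3 on the lower. Without wildtype replicate 4, 4 members were higher.

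The 2-cell stage held the largest genotype difference, in genes of the 2 core rings. Psma5 (ENSMUSG00000068749.9, chr3:108256926-108279974, plus strand), an alpha-ring subunit, had 102, 245 and 527 CPM in knockout embryos, against 33.9, 88.4 and 239 CPM in wildtype embryos. All 16 knockouts lay above the wildtype median and 8 above the highest wildtype embryo, and the ranges overlapped (log2 difference 1.37 ± 0.27, edgeR adjusted p = 7.53e-04). Psma2 (ENSMUSG00000015671.11, chr13:14613240-14627636, plus strand) had 437, 845 and 1880 CPM in knockout embryos, against 174, 452 and 698 CPM in wildtype embryos. It was above the wildtype median in 15 knockouts and above the highest wildtype embryo in 11 (log2 difference 1.05 ± 0.23, edgeR adjusted p = 0.0018). Psmb2, of the beta ring, had 178, 424 and 693 CPM in knockout embryos, against 127, 254 and 552 CPM in wildtype embryos, with 15 knockouts above the wildtype median and much overlap (log2 difference 0.74 ± 0.19, edgeR adjusted p = 0.00731). Psma6 had 53.3, 82.8 and 167 CPM in knockout embryos, against 29.9, 63.9 and 109 CPM in wildtype embryos. For Psma6, 13 knockouts lay above the wildtype median (log2 difference 0.49 ± 0.16, edgeR adjusted p = 0.0297), and the adjusted p rose to at most 0.0612 without knockout replicate 3 or 6.

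The other genes called were chaperones and genes of the cap's base. Psmd9 had 57.4, 80.2 and 127 CPM in knockout 2-cell embryos, against 38.6, 55.9 and 89.3 CPM in wildtype embryos, and all 16 knockouts lay above the wildtype median (log2 difference 0.53 ± 0.11, edgeR adjusted p = 0.00137). Psmd5 had 119, 169 and 227 CPM in knockout embryos, against 65.9, 126 and 165 CPM in wildtype embryos, with 12 knockouts above the wildtype median (log2 difference 0.45 ± 0.12, edgeR adjusted p = 0.0087). The third base chaperone, Psmd10, was not called. Psmd1 had 115, 159 and 329 CPM in knockout embryos, against 44.2, 137 and 209 CPM in wildtype embryos. Its groups overlapped, 14 knockouts lay above the wildtype median (log2 difference 0.53 ± 0.18, edgeR adjusted p = 0.0378), and the call ended when any of 10 single libraries was left out (highest adjusted p 0.0736). Psmc3, an ATPase, was the 1 member lower in knockouts, with 2.58, 7.36 and 16.0 CPM in knockout embryos, against 4.76, 13.5 and 29.4 CPM in wildtype embryos. For Psmc3, 1 knockout lay above the wildtype median (log2 difference -0.90 ± 0.26, edgeR adjusted p = 0.0133).

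The 2-cell calls differed between ranges of replicate numbers. Fitted alone, replicates 1 to 8 gave 7 members higher in knockouts (background 6.88%) and none lower (background 8.96%), and replicates 9 to 16 gave none higher (background 0.431%) or lower (background 1.2%). Of the 8 genes called with all embryos, 4 were also called in replicates 1 to 8 (Psma2, Psma5, Psmb2 and Psmd1), where Psmc2, Psmd2 and Psmd11 were called as well. The log2 difference of Psma5 was 1.69 in replicates 1 to 8 (edgeR adjusted p = 0.00406) and 1.03 in replicates 9 to 16 (edgeR adjusted p = 0.192). The labels do not say whether these number ranges were handled apart. Whether the lower sum of transient 2-cell markers in knockouts, given above, has a part in these differences was not tested.

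**Figure D5:**
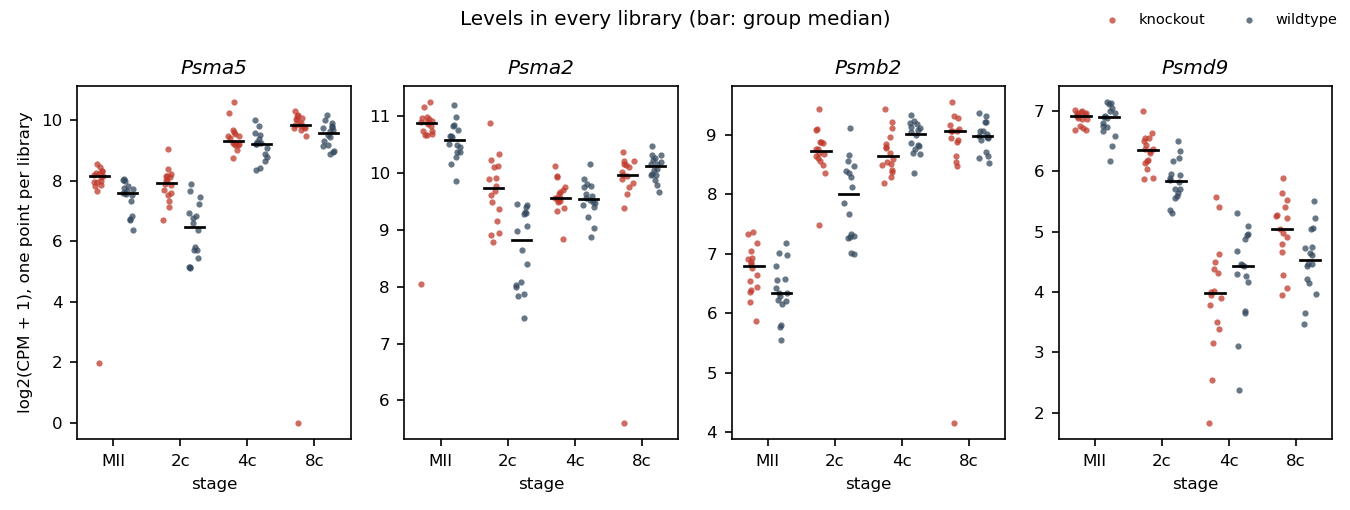
Level as log2(CPM + 1) (y axis, not starting at 0 in every panel) of Psma5, Psma2, Psmb2 and Psmd9 in every library by stage, with knockout left of wildtype and bars at the medians. In 2-cell embryos the knockout points lie mostly above the wildtype median, by 16, 15, 15 and 16 of 16 embryos in the order named. Most knockout oocytes also lie above the wildtype median for Psma5, Psma2 and Psmb2. The ranges of the genotypes overlap at every stage.

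In 4-cell embryos the genes called were others. Psma4 had 471, 726 and 1060 CPM in knockout embryos, against 238, 417 and 895 CPM in wildtype embryos, and all 16 knockouts lay above the wildtype median (log2 difference 0.63 ± 0.15, edgeR adjusted p = 0.00428). In oocytes the same gene was lower in knockouts. Psmd6, a lid subunit, had 299, 439 and 855 CPM in knockout embryos, against 343, 732 and 921 CPM in wildtype embryos, with 1 knockout above the wildtype median and overlapping ranges (log2 difference -0.56 ± 0.13, edgeR adjusted p = 0.00237). Psmd2, a base scaffold, had 23.8, 93.2 and 177 CPM in knockout embryos, against 27.4, 64.1 and 115 CPM in wildtype embryos. It lay above the wildtype median in 14 knockouts (log2 difference 0.65 ± 0.21, edgeR adjusted p = 0.0311). Psmd12, a lid subunit, had 589, 864 and 1070 CPM in knockout embryos, against 541, 674 and 989 CPM in wildtype embryos, with 15 knockouts above the wildtype median (log2 difference 0.28 ± 0.09, edgeR adjusted p = 0.0343). The last of these calls ended without any of 12 single libraries (highest adjusted p 0.0702), and that of Psmd2 without any of 5 (highest adjusted p 0.0595). Psmc3ip, the meiotic factor, had 47.3, 71.9 and 147 CPM in knockout embryos, against 14.5, 43.9 and 69.4 CPM in wildtype embryos. All 16 knockouts lay above the wildtype median and 9 above the highest wildtype embryo (log2 difference 0.89 ± 0.19, edgeR adjusted p = 0.00113). Without wildtype replicate 14, or knockout replicate 5 or 16, 2 members were higher, and without wildtype replicate 2 or 3, 3 were lower.

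In 8-cell embryos edgeR called no member of 36, with 1 at an unadjusted p under 0.05, while DESeq2 called none (3 at an unadjusted p under 0.05) and limma called 5. Over all 7219 genes limma called 608 higher and 521 lower, so its count says nothing particular about the members. The smallest p-values were those of Psmd9 (log2 difference 0.58 ± 0.24, edgeR adjusted p = 0.107) and Psmd4 (-0.41 ± 0.21, edgeR adjusted p = 0.199). Psmd9 had 14.5, 31.9 and 58.5 CPM in knockout embryos, against 10.1, 22.1 and 44.4 CPM in wildtype embryos, with broad overlap. Without knockout replicate 7, 1 member was higher (background 6.94%) and 3 lower (background 5.42%). These were the chaperone Psmd5, with a median of 272 CPM in 14 knockouts and 214 CPM in 16 wildtypes (log2 difference 0.37, edgeR adjusted p = 0.0264), and, on the lower side, Psmb4 with medians of 202 CPM in knockouts and 241 CPM in wildtypes (-0.37, edgeR adjusted p = 0.011), Psma6 with 2670 CPM in knockouts and 3090 CPM in wildtypes (-0.27, edgeR adjusted p = 0.0232), and Psmd6 with 512 CPM in knockouts and 752 CPM in wildtypes (-0.40, edgeR adjusted p = 0.028).

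Whether a stage step itself differed between genotypes was tested as an interaction, which uses the same libraries as the comparisons above and adds no independent evidence to them. From oocyte to 2 cells 2 of 34 members passed (background 4.11%). The log2 change of Psmd9 was higher in knockouts by 0.45 ± 0.13 (edgeR adjusted p = 0.0345), in 5 of 7 alternatives also called, and that of Psmc1 by 0.78 ± 0.23 (edgeR adjusted p = 0.0403), in 3 of 7. From 2 to 4 cells 5 of 36 members passed (background 15.5%). Those of Psmb2 (-0.96 ± 0.23, edgeR adjusted p = 0.00308), Psma2 (-0.98 ± 0.26, edgeR adjusted p = 0.00644) and Psma5 (-1.08 ± 0.32, edgeR adjusted p = 0.0132) were lower in knockouts and were called in 6 of 6 alternatives. These are 3 of the genes that already stood higher in 2-cell knockouts: Psma2 had a median of 753 CPM in knockout and 743 CPM in wildtype 4-cell embryos, and Psma5 642 CPM in knockout and 596 CPM in wildtype 4-cell embryos. Psmc3ip rose more in knockouts by 1.45 ± 0.43 (edgeR adjusted p = 0.0152), called in 4 of 6 alternatives, and Psmd14 by 0.51 ± 0.18 (edgeR adjusted p = 0.0474), called in 1 of 6. From 4 to 8 cells edgeR called none of 36 (background 2.73%), with 2 at an unadjusted p under 0.05, and DESeq2 and limma called none.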

How the data were processed

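Single oocytes and embryos were amplified with a SMART-Seq kit, which the labels name differently in separate fields (SMART-Seq v4, and a stranded kit). The submitters' processing notes list Trimmomatic 0.32, STAR 2.5.1a, featureCounts 1.5.1 and the mouse build mm10. Whether counting used strand is not stated in the labels. The authors deposited estimated counts: 30.56% of all non-zero values, and 36.31% of those of the 40 genes, are not whole numbers, as when a read is split between genes, so near-identical copies can share reads. Identifiers and positions of genes were looked up in GENCODE M21 for the same build.

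Counts were rounded. A minimum of 100000 counts per library excluded 8-cell knockout replicate 4. The other 127 held 528377 to 4657857 counts (median 2130015). The chi-square value per gene was at least 4.75 over 945 pairs of libraries within groups, so none were alike within sampling noise. Genotypes were compared at each stage by the quasi-likelihood F test of edgeR 4.0.16 (TMM factors, filterByExpr) in R 4.3.3, tested on simulated data, with Benjamini-Hochberg adjustment over all genes tested. Stage steps and interactions came from 4-group fits of adjacent stages, where a step also needed a log2 change of at least 1. Alternatives used DESeq2 1.42.0, limma 3.58.1, RLE factors, other filters (none, or 10 CPM in 16 libraries), the replicate block, a fit of all 8 groups, replicates 1 to 8 or 9 to 16 alone and each library left out. The fits without MII knockout replicate 15 were added after its values were seen. Tables and figures were made with Python 3.11.15, pandas 2.3.3, numpy 2.4.6 and matplotlib 3.10.9.

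The members and the lists of classes, markers and related genes were chosen with earlier results of these data known. Members named per genotype comparison are the called ones by smallest p, at most 8 (or the 2 smallest where none is called), those named per wildtype step are up to 4 called each way with the largest change, with up to 4 per interaction, and up to 6 related genes per genotype comparison. Genes named beyond these were chosen after their values were seen.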

Additional observations from a re-analysis of the deposited data

Results flagged for a closer look

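For 7 genes the test of the difference between genotypes in a stage step passed an edgeR adjusted p of 0.05: 2 of 34 members tested at the step to 2 cells, against 4.11% of all genes, and 5 of 36 at the step to 4 cells, against 15.5%. These shares are near those of all genes, so the counts say nothing particular about the members. At the step to 2 cells the log2 difference of the steps, knockout minus wildtype, was 0.45 for the chaperone Psmd9 and 0.78 for the ATPase Psmc1. At the step to 4 cells it was -1.08 for Psma5, -0.98 for Psma2 and -0.96 for Psmb2, all core-ring genes, and 0.51 for the deubiquitinase Psmd14 and 1.45 for the meiotic factor Psmc3ip. The values of Psma5, Psma2 and Psmb2 share their 2-cell libraries with the genotype differences of that stage. Non-whole deposited values, which arise when a read is split between genes, made up 70.6% of the non-zero values of Psma5, 50.4% of those of Psma2 and 59.8% of those of Psmb2, against 30.56% over all genes; their part in these values was not tested.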

How the results depend on the processing

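The replicate numbers do not pair the libraries: deviations of same-numbered libraries correlated with medians of 0.040, -0.057, 0.052 and 0.021 from oocyte to 8 cells, over 0.1 in 5, 3, 5 and 6 pairs. As a fit with the replicate number as a block, the pairing gave 1 member higher in knockout oocytes (main count 2), an interaction count of 1 at the step to 2 cells (main 2) and of 3 at the step to 4 cells (main 5). In oocytes, the count higher in knockouts was 8 with limma, 1 in replicates 9 to 16 and 1 when all 8 groups shared a fit, and the count lower (main 4) fell to 2 with replicates 1 to 8 alone, and to 1 with replicates 9 to 16 alone. In 2-cell embryos the count higher (main 7) was 0 in replicates 9 to 16 and 4 in the fit of all 8 groups, and the count lower (main 1) was 0 with limma, with a filter of 10 CPM and in either replicate range. In 4-cell embryos replicates 1 to 8 alone gave 0 higher and replicates 9 to 16 alone gave 1 higher (main 4). The count lower (main 1) was 2 with DESeq2, 4 with limma, 2 with the 10 CPM filter, and 0 in replicates 1 to 8 and in the fit of all 8 groups. In 8-cell embryos (main 0 each way) limma gave 3 higher and 2 lower, beside 608 higher and 521 lower among all 7219 genes. There the fit of all 8 groups gave 1 higher, and the fit without knockout replicate 7 gave 1 higher and 3 lower. Requiring a log2 difference of 1 left 2 members higher in 2-cell knockouts and 0 in every other genotype count. The interaction count at the step to 2 cells was 0 with RLE scaling and 0 without a filter. Without a filter, 5 members were lower at the wildtype step to 4 cells (main 2) and 1 higher at the knockout step to 8 cells (main 2), where limma gave 6. With TMM-scaled library sizes the median share of the 31 constitutive subunits was 0.645% in knockout and 0.565% in wildtype oocytes and 1.37% in wildtype 4-cell embryos. Leaving out 1 library at a time gave 2 to 7 higher and 3 to 5 lower in oocytes, 5 to 9 higher and 1 lower in 2-cell embryos, 2 to 5 higher and 1 to 3 lower in 4-cell embryos, and 0 to 1 higher and 0 to 3 lower in 8-cell embryos. No named value changed sign. Depth limits Psmb5, Psmd13 and the specialised subunits most, since many libraries gave them no count.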

Other observations

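Genes that work with the proteasome but carry other names were read from a list of assembly factors, activators, substrate shuttles, ubiquitin genes and transcriptional regulators, 37 of which are in the table. At the step to 4 cells 14 of 33 tested were higher in 4-cell than in 2-cell knockouts (33.2% of all genes) and 9 lower (41.8%), and in wildtypes 13 were higher (31.3% of all genes) and 9 lower (43.4%). Fewer of these genes passed the filter on low counts among 2-cell embryos alone, so some could only be called higher. Psme1, Psmg2 and Adrm1, named below, had 2-cell medians of 1.12, 5.05 and 5.55 CPM in knockouts. In wildtypes these medians were 1.06, 4.45 and 5.11 CPM. The rises of genes this low in 2-cell embryos are a description. Higher were Adrm1, the cap's ubiquitin receptor (log2 change 3.53 in knockouts and 3.54 in wildtypes), the deubiquitinases Usp14 (3.58 in knockouts and 3.56 in wildtypes) and Uchl5 (2.37 in knockouts and 2.02 in wildtypes), and the core assembly factors Psmg2 (3.35 in knockouts and 3.37 in wildtypes) and Pomp (1.58 in knockouts and 1.92 in wildtypes). The ubiquitin gene Rps27a rose as well, by 4.70 in knockouts and 4.08 in wildtypes. None of the 4 transcriptional regulators rose, and 2 fell in knockouts and 3 in wildtypes. Among them Ngly1, the glycanase that helps activate Nfe2l1, changed by -5.10 in knockouts and -4.51 in wildtypes, and Nfe2l1 by -1.99 in knockouts and -1.84 in wildtypes. Members of 1 role did not all move one way. Among activators Psme1 rose by 4.06 in knockouts and 1.91 in wildtypes, and Psme4 changed by -2.40 in knockouts and -2.77 in wildtypes. Among assembly factors Psmg1 changed by -2.40 in knockouts and -1.9 in wildtypes. Vcp, which delivers substrates, rose by 3.43 in knockouts and 2.83 in wildtypes. Akirin2, which was listed with such genes but has another role, changed by -3.23 in knockouts and -2.67 in wildtypes.

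Between genotypes the shares of these genes called were near or below those of all genes. In oocytes none of 26 tested was higher and 1 lower in knockouts (12% of all genes were called either way), the ubiquitin gene Ubb, with 14, 46.0 and 131 CPM (lowest, median and highest) in knockouts against 31.7, 119 and 206 CPM in wildtypes (log2 difference -1.10 ± 0.26, edgeR adjusted p = 0.00548). In 2-cell embryos 3 of 28 were higher and 2 lower (17.9%, against 17.3% of all genes). Psmg1, which helps build the alpha ring, had 78.6, 141 and 197 CPM in knockouts against 62.0, 87.2 and 121 CPM in wildtypes (log2 difference 0.69 ± 0.13, edgeR adjusted p = 2.81e-04); the groups overlapped. In 4-cell embryos 4 of 29 were higher (13.8%, against 16.4% of all genes called either way), with the activator subunit Psme1 at 5.62, 28.5 and 59.1 CPM in knockouts against 0, 7.42 and 28.7 CPM in wildtypes (log2 difference 1.42 ± 0.38, edgeR adjusted p = 0.00798). In 8-cell embryos 2 of 31 were higher (6.45%, against 11.4% of all genes called either way). The log2 difference of Psme4 was 1.72 with all 15 knockouts (edgeR adjusted p = 0.00869) and 0.52 without knockout replicate 7 (edgeR adjusted p = 0.0454). That of Ngly1 was 1.25 with all knockouts (edgeR adjusted p = 0.035) and 0.74 without that library (edgeR adjusted p = 0.129).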
